A study of Mus musculus with 10 samples.

Results

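Cd274, Pdcd1lg2, Lgals9 and Cd47 encode inhibitory ligands by which a cell restrains immune cells, and their transcripts were followed in mouse embryonic fibroblasts (MEFs) treated with interferon-beta (IFN-β). The 4 genes are 4 of the 23370 gene symbols in the deposited table. They were named as immune checkpoint and inhibitory ligands and selected on their RPKM values (reads corrected for transcript length and sequencing depth) in the same 10 libraries, with the peak of Cd274 at 2 h part of the choice. Their courses, differences and order are therefore given as descriptions, with no test. Of the 4 genes, 3 passed the filter on low values, a level of 1 RPKM or more in no fewer than 2 libraries, which 12168 genes passed. Pdcd1lg2 did not.

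MEFs are connective tissue cells grown out of mouse embryos. Those used here were of strain C57BL/6, and all groups carried a knock-in in which a cDNA for HA-tagged H3.3, a histone variant, stood in place of the H3f3b locus. The cells were grown in DMEM medium with serum, and IFN-β was used at 100 U per ml, a dose stated for the whole series. There were 2 arms, labelled Naïve and Pretreated, and each arm gave a single library at every one of 5 times (0, 1, 2, 4 and 6 h), taken here to be hours since the addition of IFN-β. What the pretreated cells received, for how long, and whether it was washed out are not stated in the labels. No label names an unstimulated library at 1 to 6 h. Differences from 0 h and effects of hours in culture cannot be told apart. Nothing states that the libraries came from separate cultures or how many embryos were used.

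PD-L1, the product of Cd274, and PD-L2, the product of Pdcd1lg2, bind the receptor PD-1 on T cells and damp T cell activation. Galectin-9, encoded by Lgals9, is a secreted sugar-binding protein that binds TIM-3 among other glycoproteins. CD47 binds SIRPα on macrophages, where it acts as a signal against engulfment. Type I interferons act through the receptor kinases JAK1 and TYK2, and PD-L1 is known as an interferon-inducible protein in many cell types.

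Depth was high and uneven, with 83.9 to 268 M counts (M, mega) per library, those at 4 and 6 h being the deepest in each arm. Of the fibroblast markers 8 of 8 passed the filter. They ranged from Col1a1, a collagen chain gene, at 2774 to 4973 RPKM down to Thy1 at 3.07 to 8.63 RPKM. The 8 markers of macrophages and dendritic cells summed to 6.57 to 8.85 RPKM in the naive and 7.26 to 12.4 RPKM in the pretreated libraries. Only Cd68 and Cd14 of that list passed the filter, and Emr1 was at 0 in all 10 libraries. Of the 4 T cell and 3 B cell markers, 0 passed, with Cd3e and Cd3g at 0 throughout. The 4 endothelial markers summed to at most 3.195 RPKM and the 4 epithelial markers to at most 5.24 RPKM. Of these, Kdr and Tek (endothelial) and Cdh1 (epithelial) passed the filter. In bulk samples such as these, fewer cells of a type and less RNA per cell cannot be told apart. Some libraries stood apart. The naive 0 h library had 9805 transcripts at a count of 0, against 5604 to 7556 in the other 9. In the pretreated arm H19, an imprinted noncoding RNA, was at 43.7 and 44.4 RPKM at 1 and 4 h but at 9.19 to 9.78 RPKM at 0, 2 and 6 h (naive libraries, 53.4 to 123 RPKM), and the collagen gene Col3a1 was at 951 and 1116 RPKM against 548 to 737 RPKM. Steps in time between these sets, and the differences between the arms at 0, 2 and 6 h, compare libraries far apart in H19, and the part this plays was not tested. Rn45s, the ribosomal precursor, was at 6751 and 4916 RPKM in the pretreated 0 and 1 h libraries and at 1678 to 2612 RPKM in the other 8, and its part in the differences at those times was not tested either.

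The 3 members past the filter followed 3 different courses. Cd274 stood above 1.91% of the tested genes in naive cells at rest, was highest at 2 h in both arms and was lower again by 6 h. At 0.42 RPKM at rest, it passed the filter only through the other 9 libraries, which sets it low among tested genes. Among all 23370 symbols it ranked 12569th in the naive 0 h library. Lgals9 was abundant from the start, was highest at 6 h in both arms, and at 0 h was 3.54 times as high in pretreated as in naive cells. Cd47 took an intermediate place, highest at 6 h in naive and at 4 h in pretreated cells, with less than 2-fold between the arms at each time. Pdcd1lg2 was close to 0 throughout. In each of the 10 libraries the order by RPKM was Lgals9, Cd47, Cd274, Pdcd1lg2.

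**Figure D1:**
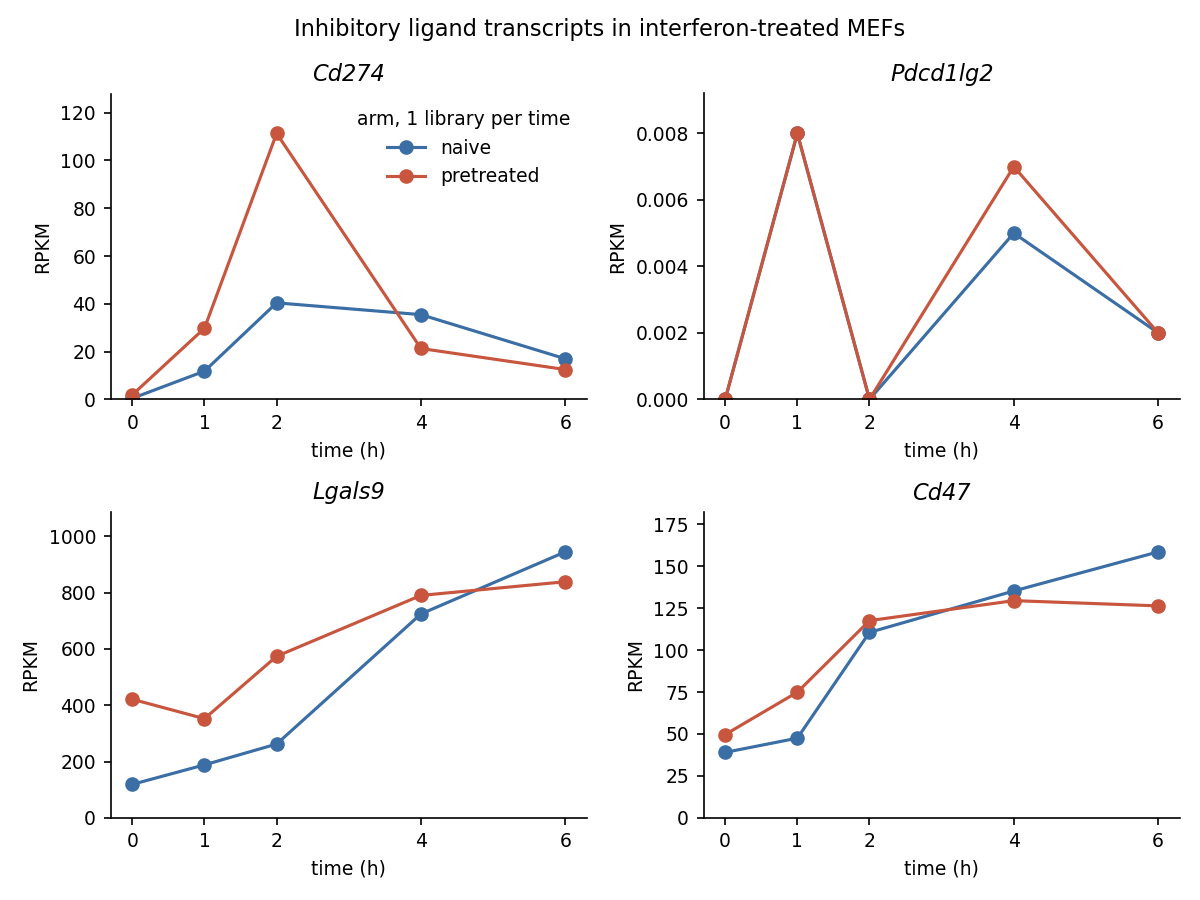
RPKM of the 4 ligand genes by hours after IFN-β, 1 panel per gene on its own linear scale, with 1 point per library and lines joining the libraries of an arm (no error bars, as no group has a replicate). Cd274 is highest at 2 h in both arms (40.4 and 111 RPKM), Lgals9 at 6 h in both (944 and 838 RPKM), and Pdcd1lg2 does not pass 0.008 RPKM.

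Cd274 lies at chr19:29367438-29388094 on the plus strand (mm10) and has 7 exons. In the naive arm it stood at 0.42, 11.8, 40.4, 35.5 and 17.0 RPKM at 0, 1, 2, 4 and 6 h. In the pretreated arm it stood at 1.89, 29.8, 111, 21.3 and 12.5 RPKM at the same times. The pretreated values were the higher ones at 0, 1 and 2 h and the lower ones at 4 and 6 h, so that the arms crossed between 2 and 4 h. Counts behind these values ran from 143 in the naive 0 h library to 33768 in the pretreated 2 h library. Intervals given with ratios are exact 95% intervals that cover counting error only, since no group had a replicate.

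From 0 to 2 h, Cd274 RPKM was 96.2 times as high in naive cells (interval 81.6 to 114) and 59.0 times as high in pretreated cells (interval 55.2 to 63.2). On the log2(RPKM + 1) scale, which understates changes of low values, these differences were 4.87 and 5.28. Of the tested genes 3.95% were 2-fold or more higher at 2 h than at 0 h in naive cells (2-fold meaning a difference of at least 1 on this scale), and 3.60% in pretreated cells. At 1 h, where 2.02% of the tested genes were 2-fold higher in naive and 1.31% in pretreated cells, Cd274 was already 3.17 and 3.41 above its 0 h value on that scale. Those 2 comparisons share the 0 h libraries with the ones at 2 h. The difference at 2 h was the 31st largest of 12168 in naive cells and the 4th largest in pretreated cells.

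After the peak the levels of Cd274 were lower by different amounts in each arm, a difference that was not tested. At 4 h, Cd274 was at 87.8% of its 2 h level in naive cells and at 19.1% in pretreated cells, and at 6 h it was at 42.1% and 11.2%. The naive 2 and 4 h values are thus close to each other, and the place of the naive peak at 2 h rests on that gap. Between 4 and 6 h in naive cells the log2 difference was -1.02, and 0.0411% of the tested genes were 2-fold or more lower. In the pretreated arm the difference from 2 to 4 h was -2.33, against 0.723% of genes 2-fold or more lower, and from 2 to 6 h it was -3.06, against 0.542%. Both were the lowest differences of all 12168 genes. From 2 to 6 h in naive cells the difference was -1.20, against 1.02% of genes 2-fold or more lower. The pretreated 2 and 4 h libraries belong to the different sets marked by H19. Within the pretreated 0, 2 and 6 h libraries Cd274 stood at 1.89, 111 and 12.5 RPKM, and within the 1 and 4 h libraries at 29.8 and 21.3 RPKM.

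Between the arms, Cd274 was 4.49 times as high in pretreated cells at 0 h (interval 3.76 to 5.40), 2.52 times at 1 h and 2.76 times at 2 h (interval 2.70 to 2.81). On the log2(RPKM + 1) scale the differences were 1.02, 1.27 and 1.44, where 2.56%, 1.55% and 1.55% of the tested genes were 2-fold or more higher in pretreated cells. At 4 and 6 h the differences were -0.71 and -0.42, neither of them 2-fold, where 0.131% and 0.214% of the genes were 2-fold or more lower. The difference at 0 h rests on low levels in both libraries. Among 1371 tested genes with a mean of 0.5 to 2 RPKM over the 0 h libraries, the same difference ran from -0.61 at the 5th to 0.91 at the 95th percentile, and Cd274 exceeded 96.0% of them. Of 1707 low transcripts, 6.27% were at 0 in the naive 0 h library, against 0% to 1.29% in the other 9, while their mean was 0.587 RPKM there and 0.567 to 0.619 RPKM in the others. The part this plays in the 0 h difference was not tested. Rn45s, as given above, was also higher in the pretreated 0 h library.

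**Figure D2:**
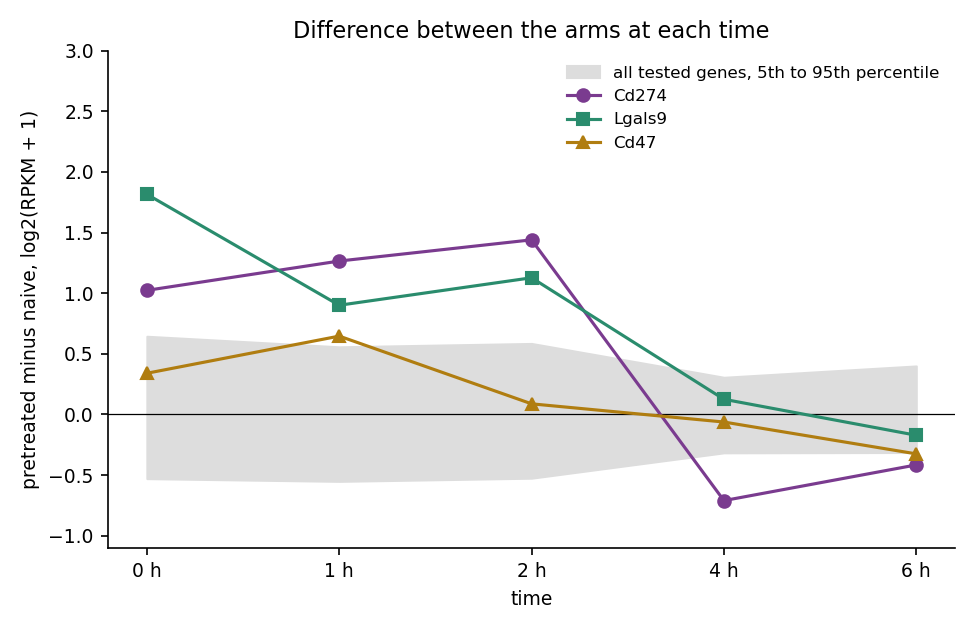
Difference of pretreated minus naive cells in log2(RPKM + 1) for Cd274, Lgals9 and Cd47 at each time (times evenly spaced, 1 library per arm), over a grey band from the 5th to the 95th percentile of all tested genes. Cd274 goes from 1.44 at 2 h to -0.71 at 4 h, outside the band at both, while Lgals9 goes from 1.82 at 0 h to -0.17 at 6 h, inside it.

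The promoter of Cd274 was searched for 2 motifs known from interferon-regulated genes. One was the core of the interferon-stimulated response element, GAAANNGAAA or its reverse complement TTTCNNTTTC, which IRF factors bind, and the other was the gamma-activated site TTCNNNGAA. Both strands were read over the 250 bases before and 50 bases after the RefSeq start (GRCm38.p6). A match to one motif may overlap a match to the other. Of 32851 RefSeq promoters of that length, 3.44% held the response element core and 8.3% the gamma-activated site. The windows of Cd274 and of Pdcd1lg2 held neither. These neighbouring ligand genes stood far apart in level after IFN-β, and the 250 bases before each start are given for comparison, on the plus strand, at chr19:29367188-29367437 and chr19:29410669-29410918. The absence of a match says only that these letters are not in the window.
Cd274: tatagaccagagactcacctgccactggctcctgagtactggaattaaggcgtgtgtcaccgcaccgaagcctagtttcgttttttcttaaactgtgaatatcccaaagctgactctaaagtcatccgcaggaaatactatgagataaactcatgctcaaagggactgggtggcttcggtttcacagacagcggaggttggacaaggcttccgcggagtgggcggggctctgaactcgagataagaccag
Pdcd1lg2: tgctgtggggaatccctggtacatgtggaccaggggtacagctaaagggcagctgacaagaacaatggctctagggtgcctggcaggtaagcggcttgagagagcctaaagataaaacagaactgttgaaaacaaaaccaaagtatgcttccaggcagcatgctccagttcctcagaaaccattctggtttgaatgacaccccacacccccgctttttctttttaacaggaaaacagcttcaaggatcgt

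Pdcd1lg2, the second PD-1 ligand gene, begins 22.8 kb after the end of Cd274 on the same strand (chr19:29410919-29472927, 6 exons). Its counts were 0, 4, 0, 4 and 2 in the naive and 0, 4, 0, 6 and 2 in the pretreated libraries from 0 to 6 h, 22 in all. No library passed 0.008 RPKM. A count of 0 allows up to 3 counts, so no fold is given, and any change of this gene with IFN-β was not detectable at this depth. The adjacent genes thus stood far apart in the same libraries, with 33768 counts for Cd274 and 0 for Pdcd1lg2 in the pretreated 2 h library.

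Genes around the Cd274 and Pdcd1lg2 pair differed less from 0 to 2 h than Cd274 did. Plgrkt, which encodes a plasminogen receptor, lies on the minus strand with 5566 bases between its start and that of Cd274. It stood at 20.5, 24.3, 37.4, 43.8 and 48.6 RPKM in naive and at 26.0, 33.0, 42.9, 41.1 and 42.0 RPKM in pretreated cells. Its highest value lay at 6 h in naive and at 2 h in pretreated cells. From 0 to 2 h its log2 difference was 0.84 in naive and 0.70 in pretreated cells, below the 4.87 and 5.28 of Cd274. Of the others, Insl6 stayed between 0.443 and 1.19 RPKM, Rln1 at or below 0.034 RPKM and A930007I19Rik between 0.119 and 0.347 RPKM. C030046E11Rik (Ric1) stood between 7.56 and 12.0 RPKM and Ermp1 between 10.1 and 21.4 RPKM, and neither differed 2-fold from 0 to 2 h in either arm. Reads are not stated to be counted by strand.

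**Figure D3:**
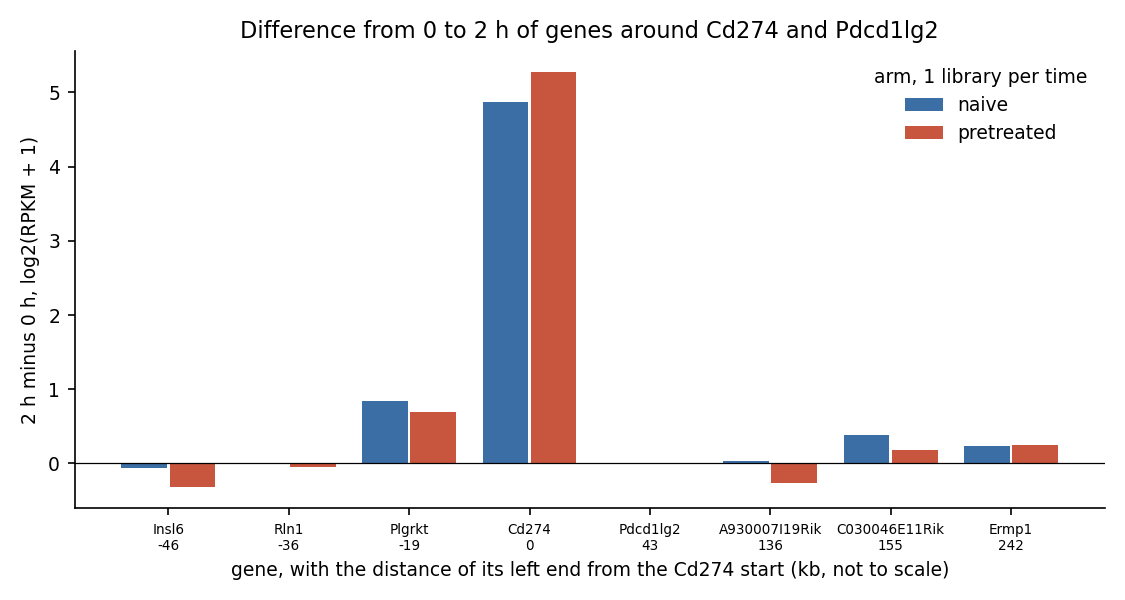
Bars give the difference of 2 h minus 0 h in log2(RPKM + 1), in the naive and the pretreated arm, for Cd274, Pdcd1lg2 and the genes around them in genome order, each with the distance of its left end from the Cd274 start in kb (spacing not to scale). Cd274 stands at 4.87 and 5.28, its neighbour Plgrkt at 0.84 and 0.70, and Pdcd1lg2 at 0.

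Lgals9 lies at chr11:78962979-78984924 on the minus strand. Its 2 RefSeq transcripts, of 10 and 11 exons, had nearly the same counts, the smaller being at least 99.46% of the larger in each library, so the isoforms could not be told apart. The 10-exon transcript, with the higher mean RPKM, was kept. The 250 bases before its RefSeq start are shown because they hold a match to the response element core, given in capitals. They are written on the minus strand (chr11:78984925-78985174, GRCm38.p6).
Lgals9: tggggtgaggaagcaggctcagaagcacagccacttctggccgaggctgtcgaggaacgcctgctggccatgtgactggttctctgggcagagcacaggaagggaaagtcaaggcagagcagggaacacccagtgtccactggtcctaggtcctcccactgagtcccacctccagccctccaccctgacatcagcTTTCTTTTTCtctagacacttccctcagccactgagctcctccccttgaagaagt
The match TTTCTTTTTC covers positions -55 to -46 from the start, and a further match, TTTCTGTTTC, covers positions 16 to 25 beyond the start. A match is a description of the letters and not a site shown to be used.

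In naive cells Lgals9 stood at 119, 188, 262, 724 and 944 RPKM from 0 to 6 h. In pretreated cells it stood at 421, 352, 574, 790 and 838 RPKM. The naive values were in the order of time, and the pretreated values were too, apart from 1 h. That low 1 h value came from one of the libraries set apart by H19. Within the pretreated 0, 2 and 6 h libraries Lgals9 stood at 421, 574 and 838 RPKM, and within the 1 and 4 h libraries at 352 and 790 RPKM.

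At rest Lgals9 was already higher than 95.7% of the tested genes in naive cells. The largest step of the naive course lay between 2 and 4 h, where it was 2.76 times as high at the later time. At 6 h it was 7.95 times its 0 h level in naive cells (log2 difference 2.98) and 1.99 times in pretreated cells (0.99). At 4 h the log2 differences from 0 h were 2.60 and 0.91. Of the tested genes, 5.71% were 2-fold or more higher at 4 h than at 0 h in naive and 4.19% in pretreated cells, and at 6 h the shares were 6.20% and 3.15%. The pretreated 0 h level was 2.24-fold lower than that of naive cells at 6 h.

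The arms differed most for Lgals9 at 0 h, by 3.54 times (interval 3.48 to 3.60) or 1.82 on the log2 scale. On that scale the later differences were 0.90, 1.13, 0.13 and -0.17 (1, 2, 4 and 6 h). In all libraries up to 2 h the pretreated value was thus the higher one at the same time, and by 4 and 6 h the arms were within 1.13-fold of each other. Beside Lgals9, Nos2, the inducible nitric oxide synthase gene, stood at 0, 0.02, 0.118, 0.346 and 0.308 RPKM in naive and at 0.047, 0.031, 0.219, 0.415 and 0.325 RPKM in pretreated cells, with its higher values at 4 and 6 h in both arms, all below the filter. Wsb1 stood at 29.9 RPKM at 0 h and 43.5 RPKM at 6 h in naive cells, and Ksr1, a kinase scaffold gene, stood at 6.49 RPKM at 0 h and 3.32 RPKM at 6 h in naive cells.

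Cd47 lies at chr16:49855654-49911683 on the plus strand and has 10 exons. Its window of 300 promoter bases held neither motif, and its 250 bases before the start had the highest share of G and C of the 4 genes, 73.2% against 48.4% to 58.4%. In naive cells it stood at 39.0, 47.5, 111, 135 and 159 RPKM from 0 to 6 h. In pretreated cells it stood at 49.7, 74.9, 118, 130 and 126 RPKM. In both arms the largest step by ratio lay between 1 and 2 h, and the pretreated values from 2 h on stayed between 118 and 130 RPKM.

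From 0 to 2 h Cd47 was 2.83 times as high in naive cells (log2 difference 1.48) and 2.37 times in pretreated cells (1.23). At its highest it was 4.06 times the 0 h level in naive cells and 2.61 times in pretreated cells. The log2 differences between the arms were 0.34, 0.65, 0.09, -0.06 and -0.33 from 0 to 6 h, none of them 2-fold. The value at 1 h lay above the 95th percentile of all tested genes (0.56), and that at 6 h lay below the 5th percentile (-0.31). CD47 protein is displayed by most cell types, and Cd47 RNA in naive cells at rest was higher than 83.1% of the tested genes. Beside it, Ift57, a gene of ciliary transport, stood between 10.8 and 14.5 RPKM, and Bbx at 6.84 RPKM at 0 h and 13.8 RPKM at 6 h in naive cells.

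The gaps between the ligands narrowed and widened with time. Per length, Cd47 was 92.9 times as abundant as Cd274 in the naive 0 h library and 1.06 times in the pretreated 2 h library, where the 2 genes stood at 118 and 111 RPKM. The ratio of Lgals9 to Cd274 ran from 283 to 5.15 in the same libraries. Lgals9 was 2.37 to 8.48 times as high as Cd47 over the 10 libraries. As a description over the 10 libraries, which share arms and times, Pearson's r of log2(RPKM + 1) was 0.85 between Cd47 and Lgals9, 0.72 between Cd47 and Cd274 and 0.48 between Lgals9 and Cd274.

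Among genes with higher levels after IFN-β, a peak at 2 h in both arms, as in Cd274, was shown by a minority. Of the tested genes 539 (4.43%) reached 2-fold above 0 h in both arms, Cd274 and Cd47 among them. Lgals9 was not, since its highest pretreated difference, from 0 to 6 h, was 0.99. With libraries rescaled by trimmed means that difference was 1.01, so its place outside the set depends on the scaling. Of the 539, 59 (10.9%) were highest at 2 h in both arms, as Cd274 was, whose naive 2 and 4 h values were close. A peak at 2 h in pretreated cells, with one at 4 h or at 6 h in naive cells, was seen for 88 (16.3%) and 59 (10.9%). The combination seen for Cd47, 6 h in naive and 4 h in pretreated cells, held for 148 (27.5%), and 115 (21.3%) were highest at 6 h in both. Among the 59 highest at 2 h in both arms, 7 were 2-fold or more lower at 6 h than at 2 h in both. Of these 7, 1 was also 2-fold or more higher in pretreated cells at 2 h, and it was Cd274. These criteria were chosen after its values were seen, so the count is a description.

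**Figure D4:**
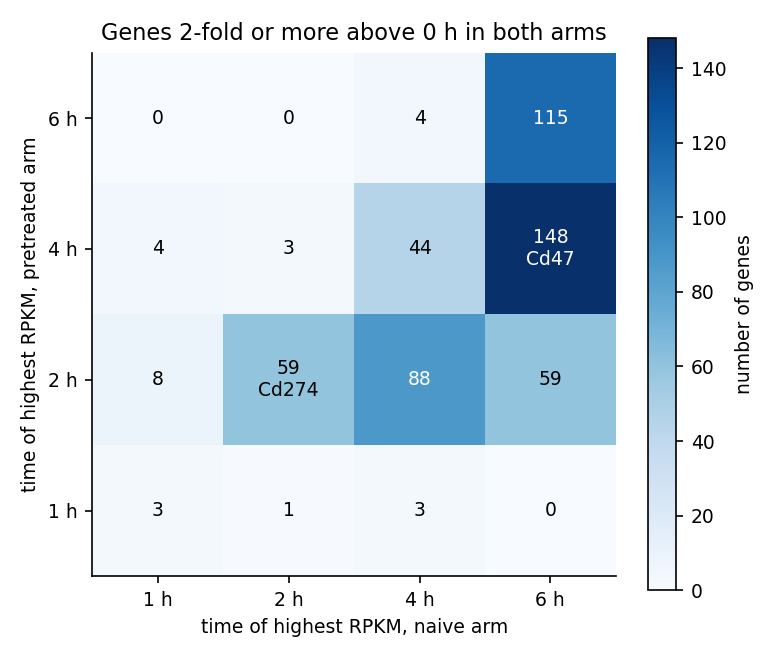
Number of the 539 genes 2-fold above 0 h in both arms, by the hour of the highest RPKM in the naive arm (across) and in the pretreated arm (upwards), with a darker cell for more genes. The cell of Cd274 (2 h in both) holds 59 genes and that of Cd47 (6 h, then 4 h) holds 148.

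The genes most like each member over the 10 libraries were taken from 2670 genes whose log2(RPKM + 1) spanned at least 1. For Cd274 these were Dll1, Mafk, Gdap10, Il6 and Slc25a28, each with r = 0.98. Dll1, a Notch ligand gene, went from 0.122 to 4.61 RPKM between 0 and 2 h in naive cells and from 0.467 to 10.7 RPKM in pretreated cells, and stood at 3.52 and 2.72 RPKM at 6 h. Il6, the gene of a secreted inflammatory cytokine, went from 0.01 to 5.82 and from 0.956 to 18.3 RPKM, and stood at 4.19 and 5.05 RPKM at 6 h. The 5 genes all had their highest value in the pretreated 2 h library. For Lgals9 they were Mov10 (r = 0.998), Ube2l6, Mocos, Ftsjd2 and Mpeg1 (each r = 0.99). Mov10, an RNA helicase gene, stood at 18.3 and 83.6 RPKM at 0 and 6 h in naive and at 45.5 and 81.5 RPKM in pretreated cells. For Cd47 they were Azi2, Vwa5a, Casp12, Olfr56 and Plgrkt, each with r = 0.99. The annotated span of Olfr56 contains Ifi47, whose reads may be counted in it, and Plgrkt is the gene next to Cd274.

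The receptors and partners of the 4 ligands were examined in the same cells. Pdcd1, which encodes PD-1, did not exceed 0.17 RPKM, and Havcr2, which encodes TIM-3, stood between 0.291 and 1.59 RPKM. Over both arms, levels at 2, 4 and 6 h were averaged and set against 0 h by edgeR's quasi-likelihood test. Its p was adjusted by Benjamini-Hochberg over 12168 genes. The arms stood in for replicates, so the spread behind p is how far the arms differ in course. This test called 19.9% of the tested genes higher and 20.0% lower, so a call is common, and the calls below depend on the naive 0 h library, without which 8 of the 12168 genes were called. Of 10 partner genes past the filter, of 13 listed, 3 rose and 1 fell, and the median log2 fold change was 0.07, against -0.01 over all genes. Cd80, which binds PD-L1 on the same cell and CD28 and CTLA-4 on T cells, rose by 1.27 (SE 0.23, adjusted p = 0.0082). It stood at 13.95, 14.1, 27.0, 28.0 and 30.2 RPKM in naive and 9.54, 18.8, 23.6, 33.1 and 19.8 RPKM in pretreated cells. Thbs1, which encodes the CD47 ligand thrombospondin, rose by 0.75, and Rgmb, which encodes a PD-L2 partner, rose by 0.42. Thbs1 stood at 435, 466, 442, 699 and 725 RPKM in naive and at 446, 849, 581, 1320 and 714 RPKM in pretreated cells. Its highest pretreated values were thus in the 1 and 4 h libraries set apart by H19, and the part this plays was not tested. Sirpa, the gene of the CD47 receptor, had 21.2 RPKM at 0 h and 13.7 RPKM at 6 h in naive cells and fell by 0.41 (SE 0.07, adjusted p = 0.0070).

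Among 36 genes of other inhibitory and costimulatory ligands and of related proteins, not all of them ligands, 17 passed the filter. Of these 5 rose and 3 fell (median 0.02), near the shares over all tested genes, 19.9% called higher and 20.0% lower. The largest rise in the list was that of Tnfsf10, the gene of the death ligand TRAIL, with a log2 fold change of 5.66 (SE 1.14, edgeR adjusted p = 0.0107). It stood at 0.097, 3.40, 22.6, 25.2 and 19.3 RPKM in naive and at 1.18, 16.8, 58.1, 15.4 and 10.0 RPKM in pretreated cells, so that in pretreated cells it too was highest at 2 h. Tnfrsf14, which encodes the BTLA ligand HVEM, rose by 2.70 (SE 0.38, adjusted p = 0.0053). H2-T23, the gene of the NKG2A ligand Qa-1, rose by 2.59 (SE 0.85, adjusted p = 0.0458), an average over unlike arms. From 0 to 6 h it went from 2.95 to 112 RPKM in naive but from 32.4 to 92.3 RPKM in pretreated cells. Cd80, also in this list, and Cd55, a complement regulator gene, rose too. Tnfsf9, Tgfb1 and Cd24a fell. Cd276, which encodes B7-H3, stood between 26.3 and 30.6 RPKM, and Cd86 did not exceed 0.015 RPKM.

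**Figure D5:**
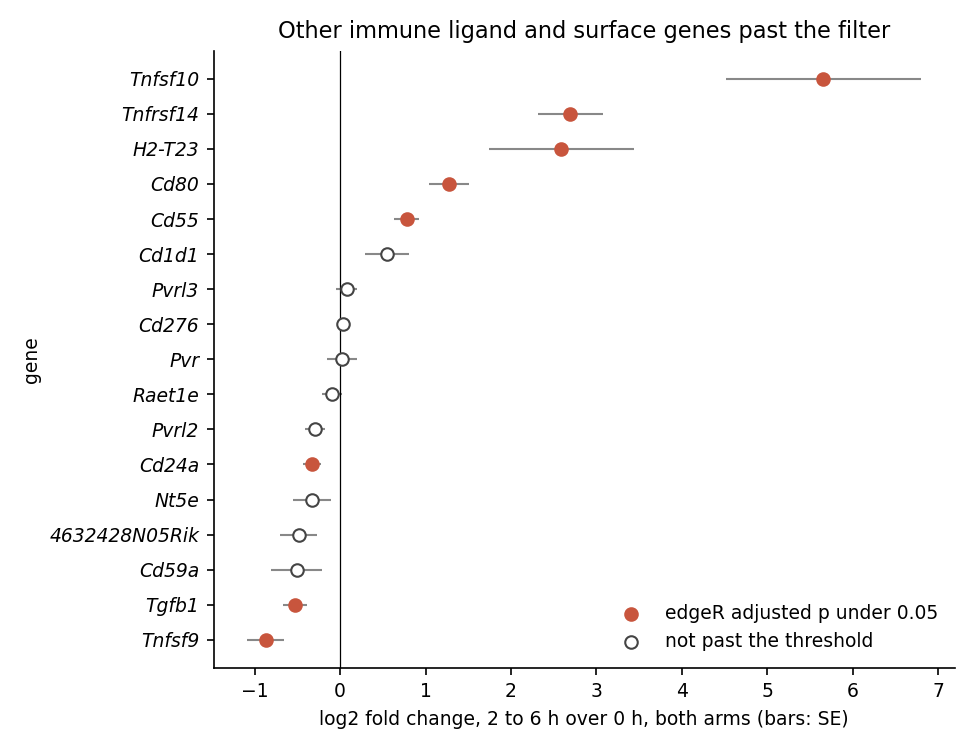
Log2 fold change of 2 to 6 h over 0 h in both arms (points, with bars of 1 SE) for the 17 other ligand and surface genes past the filter, filled where the edgeR adjusted p is under 0.05. Tnfsf10 stands highest at 5.66, 5 genes are filled above 0 and 3 below.

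A list of the other galectins and of Lgals3bp, which encodes a galectin-binding protein, had 7 of 9 genes past the filter, of which 3 rose and 1 fell (median 1.44). Without Lgals3bp 6 of 8 passed, with the same counts and a median of 0.59. Over all tested genes the same test called 19.9% higher and 20.0% lower. Lgals3bp stood at 54.6 RPKM at 0 h and 735 RPKM at 6 h in naive cells. In pretreated cells it stood at 654 and 896 RPKM at these times, and it was not called. Lgals8 rose by 1.49 (SE 0.19, edgeR adjusted p = 0.0050), with 23.8 RPKM in naive cells at rest and 96.2 RPKM after 6 h. Lgals4 and Lgals6 were called higher as well, but they are near-identical copies between which reads may be split. Both were near the floor, at 0.163 to 1.40 and 0.087 to 1.19 RPKM. Each passed the filter only through the naive 1 and 2 h libraries, so these calls lend the count of the list no weight. Lgals2 fell by 1.44. Lgals1, the most abundant, stood between 1723 and 3317 RPKM and was not called.

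All 27 listed factors that act on PD-L1 passed the filter, of which 9 rose and 3 fell (median 0.23). Jak2, which lies on the same chromosome as Cd274 and encodes an interferon-gamma receptor kinase, rose by 2.01 (SE 0.16, edgeR adjusted p = 0.0050). Irf1, whose product acts on the PD-L1 promoter, stood at 18.5, 205, 115, 97.8 and 87.4 RPKM in naive and at 27.9, 135, 138, 57.3 and 65.9 RPKM in pretreated cells, and rose by 2.01. It was highest at 1 h in naive cells. In pretreated cells its 1 and 2 h values, from libraries of the different sets marked by H19, were close to each other. Stat2, Irf2, Socs1, Jak1, Rfwd2 and Cmtm6 were also among those that rose, the last of them, which encodes a membrane protein that keeps PD-L1 from degradation, by 0.64. Rela and Stub1 were among those that fell. Of 15 factors that act on CD47 and on engulfment, all of which passed, 3 rose and 3 fell (median -0.11). These counts are near the shares over all tested genes, 19.9% called higher and 20.0% lower. Anxa1, Pros1 and Thbs1 rose, while Calr, the gene of the engulfment signal calreticulin, Cd24a and Sirpa fell.

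Together the lists held 72 tested genes, of which 21 rose and 9 fell, beside 19.9% higher and 20.0% lower over all tested genes. The calls in the lists rest on the naive 0 h library. Without it 0 rose and 0 fell, where over all genes 8 in place of 4859 were called. Without the pretreated 0 h library 12 rose and 2 fell. Without the pretreated 1 and 4 h libraries 17 rose and 8 fell. Between the arms over all 5 times, 0.386% of the tested genes were called higher and 0.879% lower in pretreated cells by the same edgeR test. Of the 72 genes 0 were called, with 25 at an unadjusted p under 0.05, as had 2660 of all 12168 genes. DESeq2 called 7 higher and 5 lower, of 1371 calls over all genes, and limma called 1 and 1, of 204.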

How the data were processed

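Total RNA of 10 MEF libraries was sequenced on an Illumina HiSeq2000. Per the file headers, 1 table gave tag counts and RPKM values of RefSeq transcripts (mm10) in every library. The counts were deposited as whole numbers without normalisation, and the RPKM values were computed by the authors before deposit. For 7630 genes above 5 RPKM throughout, dividing counts by RPKM gave 1 factor per gene times 1 per library, to within 0.000167 (log2). Cufflinks 1.2.1, TopHat, Bowtie and mm10 appear, without order or role, in the submitters' processing notes. Not given in the sources used here are the counting tool, strand use, the handling of multiply aligned reads and the library factor behind RPKM.

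Of 30646 transcripts, 15 named no gene (0.0157% to 0.0193% of each library's counts) and were excluded. Each symbol was represented by its transcript of highest mean RPKM. Single libraries were compared on log2(RPKM + 1), without p-values. Ratio intervals condition on the sum of both counts (exact binomial, 95%), with the ratio then scaled to RPKM. Lists were tested on counts with edgeR 4.0.16 (R 4.3.3; functions glmQLFit and glmQLFTest after TMM scaling) in a model of time and arm with 4 residual degrees of freedom, two-sided, with a threshold of 0.05 on the adjusted p. Standard errors (SE) were log2 fold changes over the square root of F. The model fits each time and the arm. The p-values thus measure how far the arms differ in course, not spread between cultures. DESeq2 1.42.0 and limma 3.58.1 were alternatives.

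The 4 members, the lists and the tests were chosen with earlier results of these data known. The rule for further named genes took from each list the 3 with the highest mean RPKM and the 3 with the largest naive difference from 0 to 6 h, for each member the 5 most alike genes by Pearson's r, and the 3 RefSeq genes on each side of it. Further list genes are named where their list is described. Some genes that the rule takes have no values reported here. Promoter sequences came from a RefSeq table of GRCm38.p6, in which all 4 symbols matched.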

Additional observations from a re-analysis of the deposited data

Results flagged for a closer look

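For Cd274 the difference between pretreated and naive cells had opposite signs at different times. It was 1.02 at 0 h on the log2(RPKM + 1) scale, and -0.71 at 4 h and -0.42 at 6 h. For Lgals9 it was 1.82 at 0 h and -0.17 at 6 h, and for Cd47 it was 0.34 at 0 h, -0.062 at 4 h and -0.33 at 6 h. From 0 to 1 h, Lgals9 differed by 0.66 in naive cells and by -0.26 in pretreated cells. The naive and pretreated RPKM of H19 were 109.7 and 9.39 at 0 h, 53.4 and 44.4 at 4 h, and 55.2 and 9.78 at 6 h. It was at 43.7 RPKM in the pretreated 1 h library, so the pretreated step from 0 to 1 h compares libraries far apart in it. Each value comes from 1 library per group, and none of these changes of sign was tested.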

How the results depend on the processing

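With a pseudocount of 0.1 in place of 1, the log2 differences of Cd274 were 1.93 between the arms at 0 h, 6.28 from 0 to 2 h in naive and 5.81 in pretreated cells, larger by the construction of that scale. With libraries rescaled by trimmed means (by -0.05 to 0.07 on the log2 scale), the difference from 0 to 6 h in naive cells was 3.09 for Lgals9 and 2.10 for Cd47. Over 72 differences of Cd274, Lgals9 and Cd47, 0 of 168 values under these alternatives or with the other Lgals9 transcript had the opposite sign. The test of stimulation called 4859 genes, and 4105 to 5619 under the alternatives that kept both 0 h libraries and left out no single library. With 1 library left out it called 8 to 4983 genes: 8 without naive 0 h, 2075 without pretreated 0 h and 3222 without naive 6 h. The test of the arms called 154 genes, 316 with all genes that had a count, 1371 with DESeq2 and 14 without the pretreated 1 and 4 h libraries, a choice made after seeing the data. With 1 library left out it called 2 to 175 genes, at most 7 unless the 4 h library of an arm was the one left out. With limma 100 genes were called higher and 104 lower between the arms, against 47 and 107 in edgeR. No paired analysis was possible because groups of 1 library have no replicates to pair, beyond the pairing of the arms by time that the test of the arms already holds. Depth limits what can be said of Pdcd1lg2, with 0 to 6 counts per library.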
